A study of Canis lupus familiaris with 25 samples.

Results

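A set of 100 Ensembl gene IDs was examined, chosen by their higher mean level in aspirates than in tissue of the canine prostate in both diagnoses, out of 32220 IDs counted in each sample. To choose them, CPM (the count scaled to 1000000 reads of a sample) was computed on the gene counts without KLK2, a kallikrein gene of the prostate epithelium that took 15.7% to 48.2% of the counts in non-malignant samples, and 18576 IDs reached 0.5 CPM in at least 1 non-malignant tissue. After the globin and cancer-related genes that the study names had been left out, 18562 IDs were ranked. The mean log2(CPM + 1) of tissue was subtracted from that of aspirates within each diagnosis, and the IDs were ranked by the smaller of the 2 differences. The difference between aspirates and tissue therefore chose the IDs, and it is given as a description without a test. The files hold IDs without gene names, and the reference table of names matched 0 of the IDs, so that members are given by ID and their functions are not described.

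The study asked whether ultrasound-guided fine-needle aspiration (US-FNA) of the prostate in living dogs yields RNA that can be sequenced and compared with prostate tissue. Tissue was collected post mortem and diagnosed by histopathology, whereas aspirates were collected in life and diagnosed by cytology, and the 2 sample types were extracted with different kits. An exception was the dog of the malignant aspirate US-3, in which aspiration was done again directly after euthanasia, and it is not stated whether US-3 was taken before or after. Sample type, way of diagnosis and extraction therefore cannot be told apart, and neither can time of collection, unless US-3 was taken after death. Non-malignant tissue came from 9 intact dogs aged 1 to 16 years and non-malignant US-FNA from 5 intact dogs aged 4 to 10 years. Malignant tissue came from 3 intact dogs aged 8 to 9 years and 6 neutered dogs aged 8 to 12 years, and malignant US-FNA came from 2 neutered dogs aged 9 and 10 years. Diagnosis and neutering thus cannot be told apart among aspirates, and they overlap in tissue. The total gene count of a non-malignant sample lay between 3355926 and 4996566 in US-FNA and between 4258267 and 6594032 in tissue. It ranged from 4455090 to 5932349 in malignant tissue and was 3966984 in US-3 and 4052454 in US-4, the malignant aspirates.

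A fine needle draws up loosened cells together with fluid and blood from vessels that it crosses. Red blood cells and their precursors carry abundant globin RNA, and white blood cells and platelets bring RNA of their own. In bulk RNA, a larger number of cells of a type and more RNA per cell cannot be told apart. The study also graded the blood that was visible in each aspirate, which is referred to here as weak, moderate or strong.

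Over the 100 IDs the malignant aspirate US-3 had the highest mean level of all samples, and its own values had entered the choice of the IDs. In a list chosen without US-3, which shared 31 IDs, its median difference from the mean of malignant tissue was 1.23 on the log2 scale in place of 4.95. US-3 came from the dog with aspiration also after euthanasia, and unlike for the other sequenced aspirates no RNA integrity number is given for it. The study describes the RNA electropherogram of the malignant sample without a detectable number as acceptable. The part of time of collection and RNA quality in the level of US-3 was not tested. In the full list, the mean log2(CPM + 1) was 8.07 in US-3 and 3.67 in US-4. Among non-malignant aspirates it was 5.24 in US-13, 4.40 in US-7, 3.87 in US-15, 3.48 in US-32 and 3.17 in US-40. In tissue, it ranged from 2.27 to 3.83 (median 3.45) in malignant and from 1.19 to 2.18 (median 1.53) in non-malignant samples. Every non-malignant aspirate was above every non-malignant tissue, while US-4 lay within the range of malignant tissue. The median log2(CPM + 1) over all ranked IDs showed no such distance, with 3.14 in US-3, 2.98 in US-4, 2.86 to 3.35 in non-malignant US-FNA, 2.82 to 3.71 in malignant tissue and 2.54 to 3.46 in non-malignant tissue. Since the list was chosen by this distance, its contrast with all ranked IDs is a description only.

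**Figure D1:**
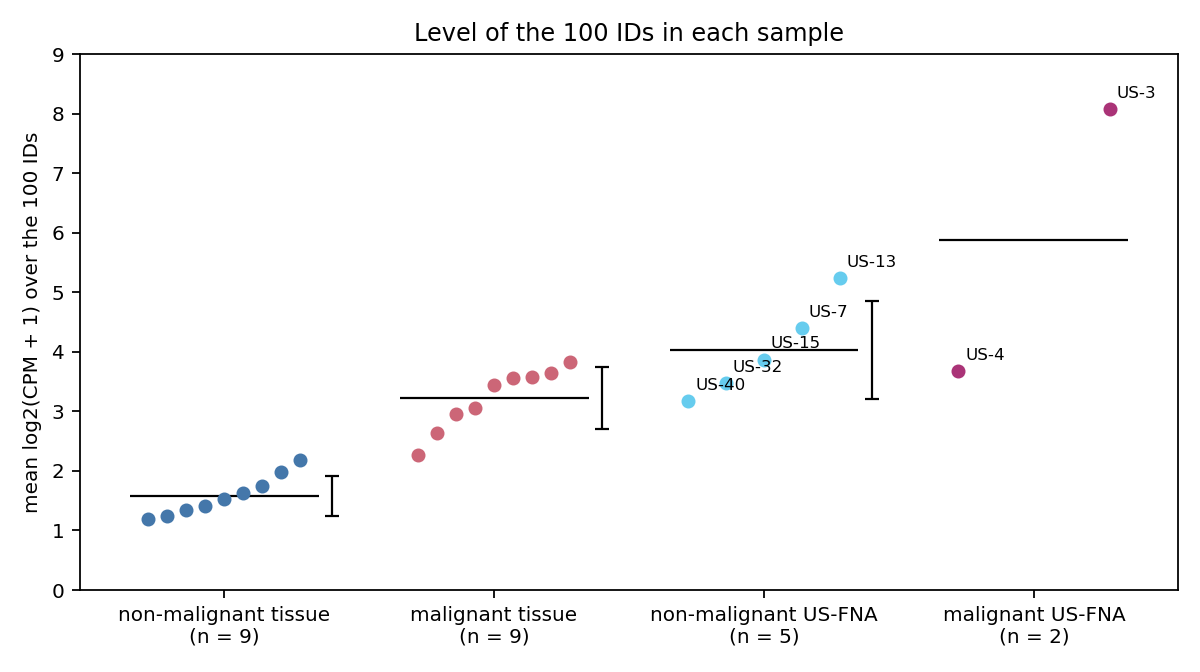
Mean log2(CPM + 1) over the 100 IDs in each sample by group, with the group mean as a line and the SD as a bar for groups of more than 2 samples. US-3 reached 8.07, whereas US-4, at 3.67, lay within the range of malignant tissue.

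The 100 IDs took 0.0674% to 0.183% of the counts without KLK2 in non-malignant tissue, 0.132% to 0.335% in malignant tissue and 0.459% to 1.05% in non-malignant US-FNA. In US-4 they took 0.653% (95% Wilson interval 0.645% to 0.661%), and in US-3 they took 6.67% (6.64% to 6.69%). The intervals cover counting error only. In non-malignant tissue, between 7 and 41 of the 100 IDs (median 24) had no count at all in a sample, compared with 2 to 6 (median 4) in malignant tissue and at most 1 in any aspirate. Over all ranked IDs this share was 9.34% to 20.3% (median 13.6%) in non-malignant tissue, 13.6% to 18.8% (median 15.6%) in malignant tissue, 14.3% to 19.9% in non-malignant US-FNA, 17.3% in US-4 and 17.4% in US-3. The choice favours IDs that are low in tissue and high in aspirates, so that nothing is read from the counts of IDs without a count.

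The smaller difference ranged from 1.46 to 7.64 on the log2 scale, with a median of 1.87. The last ID inside the list had a smaller difference of 1.461 and the next ID outside it had 1.449, so that the border of the list runs through a dense range of values. The difference between aspirates and tissue was larger in non-malignant samples for 48 IDs and larger in malignant samples for 52. Its median was 2.19 in non-malignant samples (1.46 to 7.64) and 2.21 in malignant samples (1.47 to 10.76).

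**Figure D2:**
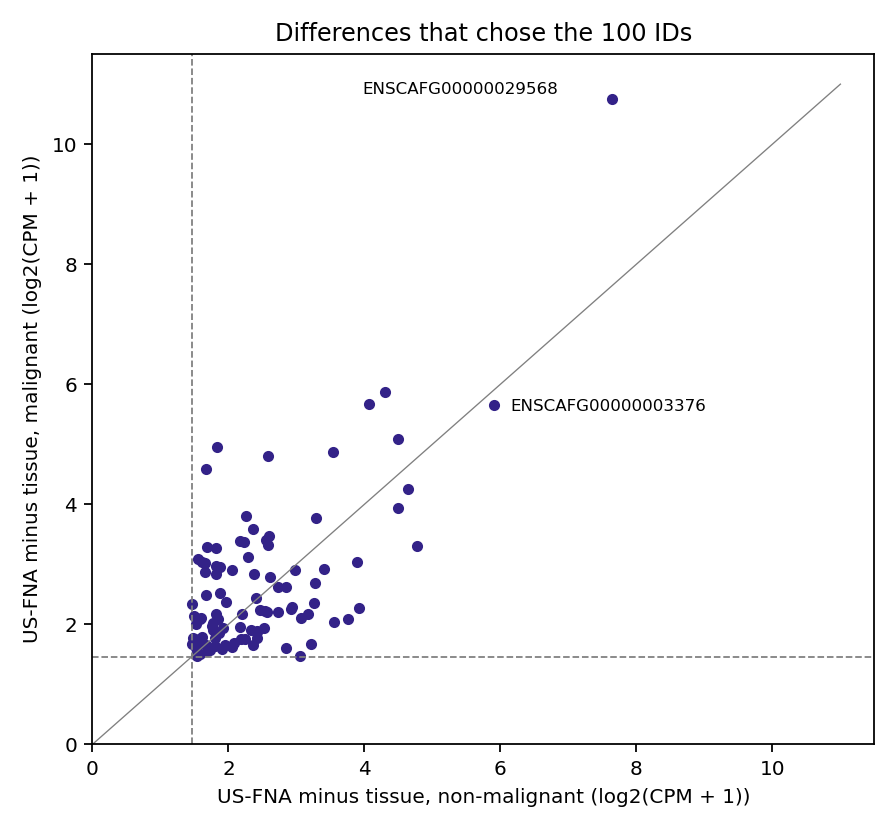
Mean log2(CPM + 1) in US-FNA minus tissue in non-malignant samples (x axis) and malignant samples (y axis) for each of the 100 IDs, with dashed lines at the smallest value inside the list and a solid line where both differences are equal. ENSCAFG00000029568 and ENSCAFG00000003376 lie furthest from the dashed lines.

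ENSCAFG00000029568 had the largest smaller difference, with 7.64 in non-malignant and 10.76 in malignant samples. Its level was 2811 CPM in US-13, 1690.5 CPM in US-7, 215 CPM in US-15, 361 CPM in US-32 and 46.3 CPM in US-40, and it was 3402 CPM in US-4 and 4530.2 CPM in US-3. In non-malignant tissue the lowest, median and highest values were 0, 0.878 and 5.08 CPM, and in malignant tissue they were 0, 0.449 and 13.0 CPM. All 7 aspirates were above all 18 tissues, and both malignant aspirates were above every non-malignant aspirate. The globin genes that had been left out of the ranking would have taken ranks 1, 3, 4, 5 and 11, so that ENSCAFG00000029568 would have stood between them at rank 2.

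ENSCAFG00000003376 followed with 5.91 in non-malignant and 5.66 in malignant samples. It reached 6292 CPM in US-3 but 28.4 CPM in US-4, and it was at 383 CPM in US-13, 179 CPM in US-7, 65.5 CPM in US-15, 62.3 CPM in US-32 and 49.1 CPM in US-40. The lowest, median and highest values were 0, 0.786 and 3.90 CPM in non-malignant tissue and 0, 5.41 and 76.9 CPM in malignant tissue. Non-malignant aspirates and tissue did not overlap for this ID, whereas US-4 lay within the range of malignant tissue. The distance from the mean of malignant tissue was 9.53 on the log2 scale in US-3 and 1.79 in US-4.

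Of the 100 IDs, 54 were higher in every non-malignant aspirate than in every non-malignant tissue (1.73% of all ranked IDs), and 26 were higher in both malignant aspirates than in every malignant tissue (3.26% of all ranked IDs). Both held for 17 IDs (0.21% of all ranked IDs). Since the list was chosen on these values, nothing is read from these counts. US-3 was above every malignant tissue for 98 IDs (14.2% of all ranked IDs) and US-4 for 27 (10.2%). Without US-4 the count for malignant aspirates was thus 98, and without US-3 it was 27. US-4 was above the mean of malignant tissue on the log2 scale for 56 of the 100 IDs (37.6% of all ranked IDs).

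US-3 exceeded US-4 by more than 10 times on the CPM + 1 scale for 66 of the 100 IDs (3.2% of all ranked IDs), and by at most 2 times or not at all for 18 (84.3% of all ranked IDs). US-4 was above US-3 for 8 IDs (47.9% of all ranked IDs). The median difference from the mean of malignant tissue was 4.95 on the log2 scale in US-3 (0.33 to 10.96) and 0.26 in US-4 (-2.15 to 10.55). In the plot of both malignant aspirates by rank, US-3 lies above 0 for the whole list, whereas US-4 scatters around 0.

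**Figure D3:**
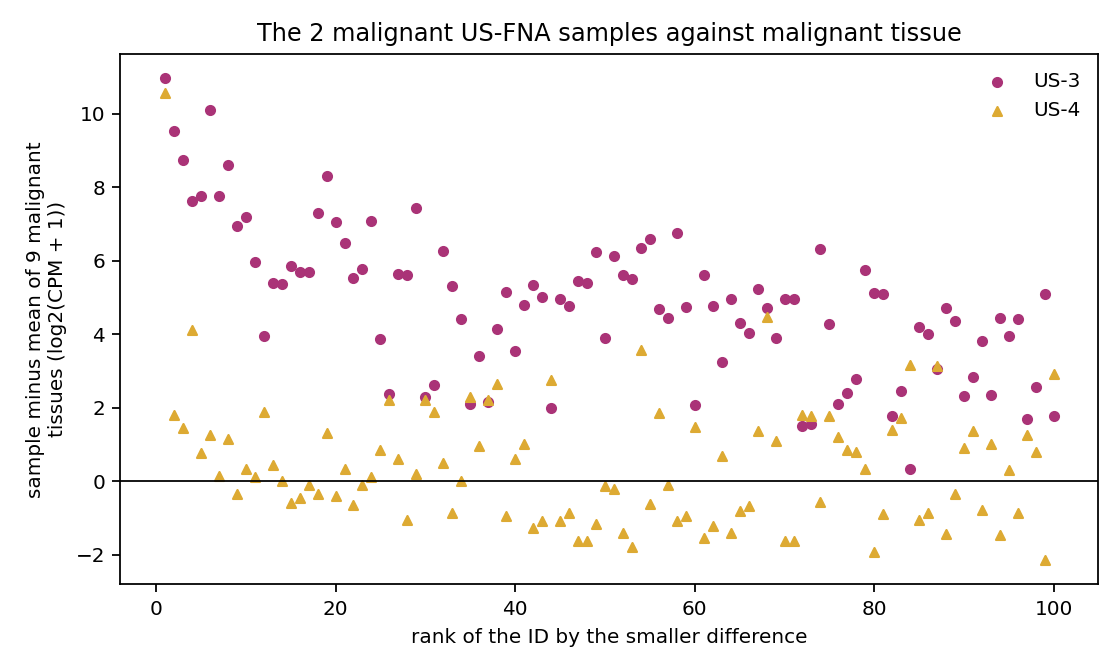
Difference of US-3 (circles) and US-4 (triangles) from the mean log2(CPM + 1) of 9 malignant tissues for each of the 100 IDs by rank. The median was 4.95 for US-3 and 0.26 for US-4.

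A few IDs showed even levels across aspirates instead. Every aspirate was above every tissue of either diagnosis for 4 of the 100 IDs (0.0539% of all ranked IDs), named here after their values had been seen. Besides ENSCAFG00000029568 these were ENSCAFG00000018629, ENSCAFG00000014041 and ENSCAFG00000006031. ENSCAFG00000018629 ranged from 154 to 298 CPM in the 7 aspirates and reached at most 122 CPM in tissue. The level of ENSCAFG00000014041 was 37.8 to 90.4 CPM in aspirates and at most 27.9 CPM in tissue. For ENSCAFG00000006031 the aspirates spanned 27.1 to 64.1 CPM, close to the highest tissue at 25.8 CPM. Among aspirates the highest level was 1.93, 2.39 and 2.36 times the lowest for these 3 IDs, in this order, compared with 97.8 times for ENSCAFG00000029568.

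To see how far an aspirate outside the choice followed it, the list was chosen again 7 times, with 1 aspirate left out each time, and the left-out aspirate was compared with every tissue of its diagnosis. US-13 was above all of them for 93 of 100 IDs (15.4% of all ranked IDs) and US-7 for 89 (18.1%). US-15 was above for 80 IDs (13.5%), US-32 for 72 (11.7%) and US-40 for 60 (24.1%). For the list chosen without US-3, US-3 was above every malignant tissue for 61 IDs (14.2%), and for the list chosen without US-4, US-4 was above for 12 (10.2%). The median difference of the left-out sample from its tissue mean was 1.23 for US-3 and -0.71 for US-4, and US-4 was above its tissue mean for 35 of the 100 IDs that US-3 and the non-malignant aspirates had chosen (37.6% of all ranked IDs). The tissues were the same in every choice, so that only the aspirate side was independent of it and nothing further is read from these counts. The list chosen without US-3 shared 31 IDs with the full list, and that chosen without US-4 shared 67.

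Malignant tissue was compared with non-malignant tissue in the quasi-likelihood test of edgeR, with p-values adjusted by the Benjamini-Hochberg method over all 15293 genes tested and a false discovery rate (FDR) under 0.05 as the threshold. All 100 IDs passed the filter on low counts over the 4 groups. In malignant tissue, 70 of the 100 IDs were higher (32.8% of all genes tested) and 14 were lower (24.9% of all genes tested). The median log2 fold change was 3.19 over the 100 IDs and 0.17 over all genes. The tissue values had also entered the choice of the list, and an ID at a low level in tissue had more room to be higher in aspirates. This holds in either diagnosis, and its part in the counts was not tested. At an FDR under 0.00001, edgeR called 17 IDs (6.39% of all genes), 16 higher and 1 lower.

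Of the IDs that rose in malignant tissue, ENSCAFG00000011525 had the smallest p-value. It was at 0, 0 and 1.31 CPM (lowest, median and highest) in non-malignant tissue and at 6.25, 31.7 and 44.5 CPM in malignant tissue, without overlap, with a log2 fold change of 6.43 (SE 0.62, edgeR FDR 1.8e-07). ENSCAFG00000003260 was at 0, 0.275 and 1.39 CPM in non-malignant and at 3.47, 29.2 and 57.0 CPM in malignant tissue, with a log2 fold change of 5.82 (SE 0.58, edgeR FDR 2.6e-07). Non-malignant aspirates reached at most 36.0 CPM for the former and 21.7 CPM for the latter. In malignant aspirates ENSCAFG00000011525 was at 384 CPM in US-3 and 47.1 CPM in US-4, just above the highest malignant tissue, whereas ENSCAFG00000003260 was at 709 CPM in US-3 and 3.70 CPM in US-4, near the lowest malignant tissue.

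ENSCAFG00000017134 fell in malignant tissue and was the most abundant of the 100 IDs in every non-malignant tissue. It was at 208, 357 and 593 CPM (lowest, median and highest) in non-malignant and at 47.4, 95.6 and 150.0 CPM in malignant tissue, with a log2 fold change of -1.98 (SE 0.22, edgeR FDR 7.2e-07). Among aspirates it was at 1197 CPM in US-13, 888 CPM in US-7, 1178 CPM in US-15, 1235 CPM in US-32, 935 CPM in US-40, 326 CPM in US-4 and 537 CPM in US-3. The malignant samples were lower than the non-malignant ones in both sample types, without overlap. In aspirates, however, the log2 fold change of -1.13 (SE 0.41) did not pass the threshold (edgeR FDR 0.071). ENSCAFG00000035517 was at 2.34, 4.39 and 7.86 CPM in non-malignant and at 0, 0.401 and 1.35 CPM in malignant tissue, with a log2 fold change of -3.50 (SE 0.50, edgeR FDR 1.2e-05). In aspirates it lay between 6.13 and 34.3 CPM in non-malignant samples and at 3.95 CPM in US-4 and 3.02 CPM in US-3, with a log2 fold change of -2.36 (SE 0.81) that did not pass either (edgeR FDR 0.056).

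Between the aspirates, 2 malignant and 5 non-malignant samples were compared in the same way over 15232 genes. The aspirate values had entered the choice of the list as well, and the malignant aspirates were also the only ones from neutered dogs. In malignant US-FNA, 68 of the 100 IDs were higher (16.5% of all genes tested) and 3 were lower (12% of all genes tested). The median log2 fold change was 4.15 over the 100 IDs and 0.13 over all genes. The count rested on US-3: without this sample 11 of the 100 IDs were called in place of 71 (22.1% of all genes in place of 28.5%), and the median log2 fold change was -1.11. Of these 11 IDs, 5 were higher and 6 were lower. US-4 is then the only malignant aspirate and is assumed to vary like the non-malignant ones. The count also moved to 34 without US-7 (3045 of 15226 genes), 34 without US-15 (21.1% of all genes), 31 without US-32 (20.3%) and 38 without US-40 (24.6%), with the median log2 fold change between 3.84 and 4.16. Without US-4 it was 79 (26.8%). At an FDR under 0.00001, 0 of the IDs and 0 of all genes were called by edgeR, although 84 of the IDs and 41.6% of all genes had an unadjusted p under 0.05. Without US-3 an unadjusted p under 0.05 was found for 18 of the IDs and 34.7% of all genes. DESeq2 called 76 of the IDs at an FDR under 0.05 (35.0% of its genes, those with an adjusted p in DESeq2), 70 higher and 6 lower.

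ENSCAFG00000018073 was at 43.4 CPM in US-4 and 178 CPM in US-3, compared with 10.6 CPM in US-13, 7.56 CPM in US-7, 4.92 CPM in US-15, 1.11 CPM in US-32 and 2.04 CPM in US-40. The groups did not overlap, and the log2 fold change was 4.65 (SE 0.75, edgeR FDR 0.0032). Between malignant and non-malignant tissue it was 4.71 (SE 0.70, edgeR FDR 2.0e-05). US-4 lay within the range of malignant tissue for this ID (3.31 to 70.5 CPM), and US-3 was above it. ENSCAFG00000017772 was at 63.2 CPM in US-4 and 436 CPM in US-3, with a log2 fold change of 5.67 (SE 1.03, edgeR FDR 0.0051). It was at 18.6 CPM in US-13, 5.59 CPM in US-7, 1.89 CPM in US-15, 0.737 CPM in US-32 and 2.39 CPM in US-40. Between malignant and non-malignant tissue its log2 fold change was 4.23 (SE 0.82, edgeR FDR 0.00028). Both malignant aspirates were above its highest malignant tissue (26.3 CPM). The aspirate values had entered the choice of the list, and these 2 IDs were named for their small p-values. The list was not chosen again when each aspirate was left out of the fit in turn. The log2 fold change then ran from 3.21 to 5.29 for ENSCAFG00000018073 and from 3.59 to 6.84 for ENSCAFG00000017772. Both lowest values are from the fit without US-3, where the spread came from the non-malignant aspirates alone.

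The 3 IDs that were lower in malignant US-FNA were ENSCAFG00000032192, ENSCAFG00000031288 and ENSCAFG00000029798, the last named after its values had been seen. ENSCAFG00000032192 was at 589 CPM in US-13, 715 CPM in US-7, 400.4 CPM in US-15, 675 CPM in US-32 and 748 CPM in US-40, against 145 CPM in US-4 and 162 CPM in US-3, with a log2 fold change of -1.80 (SE 0.37, edgeR FDR 0.0082). ENSCAFG00000031288 was at 382 CPM in US-13, 582 CPM in US-7, 266 CPM in US-15, 438 CPM in US-32 and 730.5 CPM in US-40, against 128 CPM in US-4 and 136 CPM in US-3, with a log2 fold change of -1.62 (SE 0.40, edgeR FDR 0.018). For both IDs the malignant aspirates were close to each other and below all non-malignant ones, and US-40, which had the smallest globin share, was the highest. In tissue, ENSCAFG00000032192 was at 25.8, 75.5 and 203 CPM (lowest, median and highest) in non-malignant and at 9.60, 35.6 and 66.5 CPM in malignant samples.

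The 5 globin genes took 2.83% of the counts without KLK2 in US-13 (95% Wilson interval 2.81% to 2.85%), 1.15% in US-7 (1.14% to 1.16%) and 0.819% in US-15 (0.808% to 0.830%). They took 0.548% in US-32 (0.539% to 0.557%) and 0.0408% in US-40 (0.0385% to 0.0432%). In malignant aspirates they took 2.98% in US-4 (2.96% to 2.99%) and 3.98% in US-3 (3.96% to 4.00%), compared with at most 0.0142% in any tissue. Within non-malignant aspirates, the order of the samples by globin share was the same as by mean level of the 100 IDs, from US-13 down to US-40. US-4 did not follow this order, since its globin share was above that of US-13 while its mean level was below that of US-15.

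**Figure D4:**
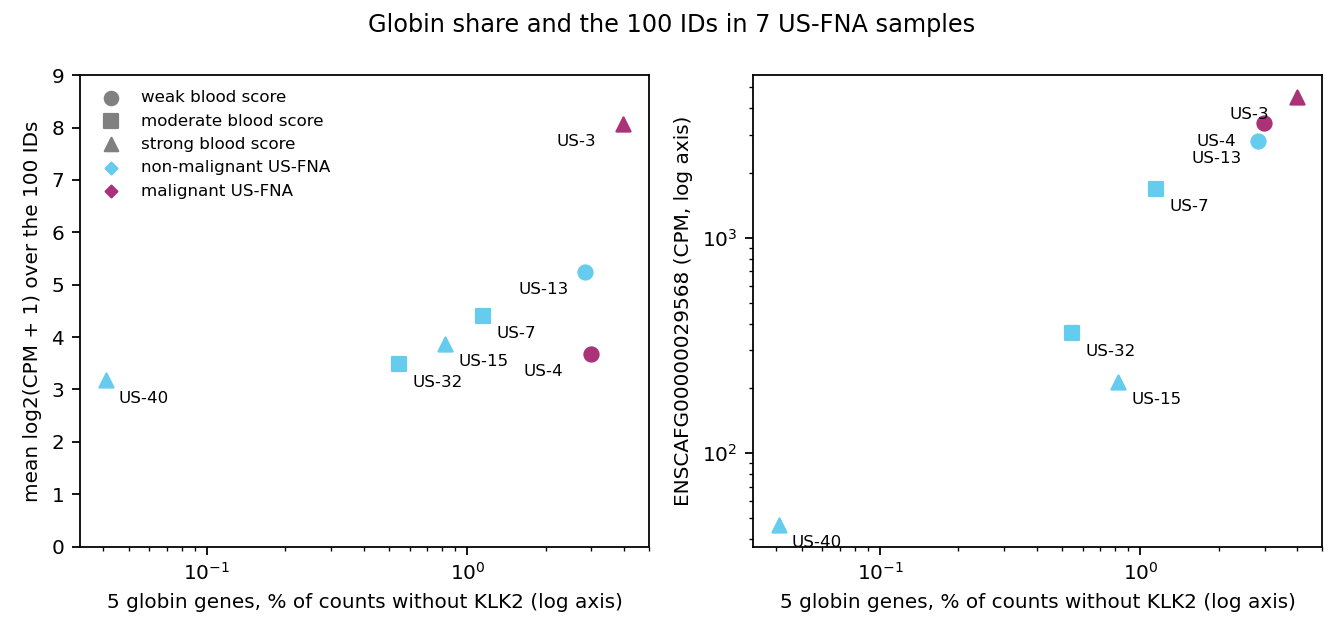
Share of 5 globin genes in the counts without KLK2 (x axis, log scale) against the mean log2(CPM + 1) over the 100 IDs (left) and the CPM of ENSCAFG00000029568 (right, log scale) in 7 US-FNA samples, with the colour for the diagnosis and the symbol for the blood score. US-4, with a globin share of 2.98%, was low in the left panel and high in the right panel.

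The slope of each gene on the log2 globin share was tested with edgeR within the 7 aspirates, with diagnosis as a further term. Of the 100 IDs, 0 had an FDR under 0.05 (0% of 15232 genes tested, in either direction), 12 had an unadjusted p under 0.05 (6.78% of all genes), and DESeq2 called 2 (0.185% of the 10817 genes with an adjusted p). The slope was positive for 92 of the 100 IDs and for 53.5% of all genes. Its median was 0.48 over the 100 IDs and 0.01 over all genes, and without US-40 the former was 1.02. The number of IDs with an unadjusted p under 0.05 was 72 without US-4 and 64 without US-3 (12.6% of all genes in each), and 66 in the 5 non-malignant aspirates alone (13.6% of all genes). With a single malignant aspirate the diagnosis term takes up its value, so that these 3 fits rest on the same 5 aspirates. It was 5 without US-13 (2.38% of all genes) and 7 without US-40 (2.71%), and it was 36 with DESeq2 (3.58% of the 23092 genes with an unadjusted p) and 21 with no filter on low counts (7.15%). A high value in a single aspirate also raises the group mean that the choice used, so that these slopes are not independent of the choice.

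ENSCAFG00000029568 had the smallest p-value among the 100 IDs, with a slope of 1.02 (SE 0.18) and an edgeR FDR of 0.71. DESeq2 called this ID with a slope of 1.02 (SE 0.15, FDR 5.9e-08) and ENSCAFG00000002036 with a slope of 0.84 (SE 0.21, FDR 0.039), which is named after its values had been seen. A slope near 1 means that the level changed in proportion to the globin share.

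The globin share in tissue offered a comparison whose spread within a diagnosis was not the contrast of the choice. Over 18 tissues, with diagnosis as a further term, edgeR called 1 of the 100 IDs with a positive slope (0.0327% of 15293 genes tested) and 0 with a negative slope (0.0196%). The called ID was ENSCAFG00000029568, with a slope of 1.14 (SE 0.14, edgeR FDR 0.00080), and DESeq2 called the same ID (0.85% of its genes in either direction, compared with 0.0523% in edgeR). With KLK2 and the 5 globin genes left out, this ID was the only one of 15287 genes called with a positive slope (edgeR FDR 0.0028). It kept an edgeR FDR under 0.05 with each tissue left out in turn (at most 0.0083). This and the split by diagnosis were chosen after seeing the data. In malignant tissue alone the slope was 1.29 (SE 0.13, edgeR FDR 0.0058), whereas in non-malignant tissue alone it was 0.88 (SE 0.28, unadjusted p = 0.0077) and the edgeR FDR was 0.51. Its highest value in tissue, 13.0 CPM, was in PT-5, the tissue with the highest globin share, and it had no count in PT-6, PT-8 and PT-17. Whether this ID shares reads with the globin genes was not tested. For the other 99 IDs no slope was called. An unadjusted p under 0.05 was found for 5 of the 100 IDs (8.96% of all genes), for 3 without PT-4 (6.01%) and for 2 in non-malignant tissue alone (7.5%), and the median slope over the 100 IDs was -0.0043 compared with -0.0066 over all genes. With 1 tissue left out in turn, the median over the 100 IDs ran from -0.059 (without PT-8) to 0.035 (without PT-17). In these fits the median over all genes was -0.0056 and -0.0043.

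**Figure D5:**
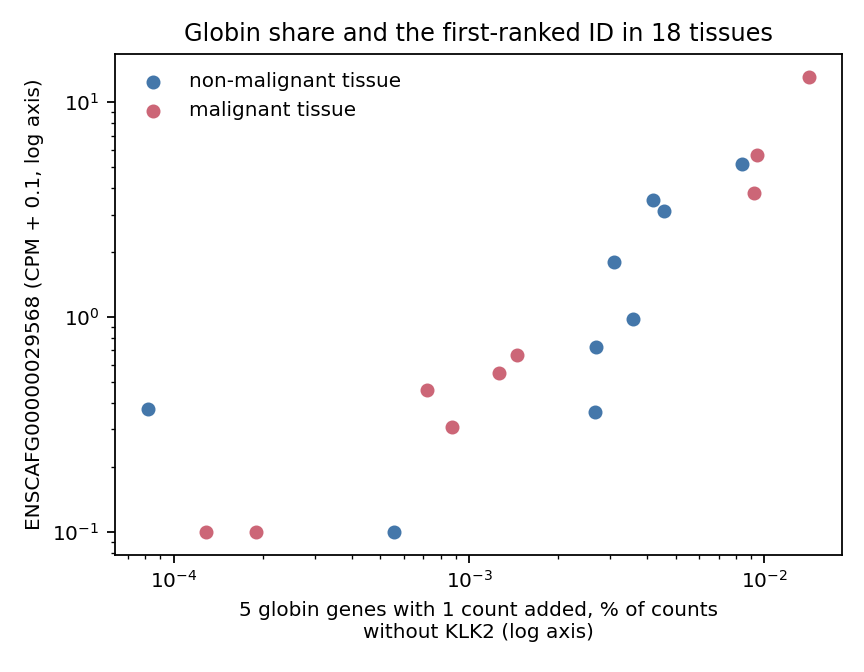
Share of 5 globin genes with 1 count added (x axis, log scale) against the CPM of ENSCAFG00000029568 with 0.1 added (y axis, log scale) in 9 non-malignant and 9 malignant tissues. PT-5 was highest on both axes, and PT-13, with the smallest share, was at 0.272 CPM.

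The blood score did not order the aspirates in the way the globin share did. US-13 and US-4 had a weak score and globin shares of 2.83% and 2.98%, whereas US-40 had a strong score and the smallest share of all aspirates. US-7 and US-32 had a moderate score, and US-15 and US-3 had a strong one. The mean level of the 100 IDs was therefore highest in an aspirate with a weak score among non-malignant samples and in one with a strong score among malignant samples.

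In the edgeR test of the slope on the score within 7 aspirates, with diagnosis as a further term, 0 of the 100 IDs were called (0% of 15232 genes tested, in either direction). An unadjusted p under 0.05 was found for 2 IDs (6.64% of all genes), and DESeq2 called 0 (0.357% of its genes). The slope was positive for 47 of the 100 IDs and for 51.0% of all genes, with a median of -0.04 compared with 0.01 over all genes. The direction depended on which aspirates were included: the median was 1.87 without US-13, -1.03 without US-4, -1.01 without US-3, 0.33 without US-40 and 0.06 without US-15. The diagnosis term takes up the value of a single malignant aspirate. The slopes without US-4 and without US-3 therefore rest on the same non-malignant aspirates and are not separate effects of these 2 samples. The slope was positive for 88 IDs without US-13 (50.7% of all genes), 8 without US-4 (49.4%), 8 without US-3 (49.8%) and 72 without US-40 (47.8%). An unadjusted p under 0.05 was then found for 22 IDs without US-13 (9.4% of all genes), 56 without US-4 (6.63%) and 51 without US-3 (6.47%). ENSCAFG00000029568 had a slope of -1.38 per step of the score (SE 0.70, edgeR FDR 0.74).

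Within malignant tissue, 6 neutered and 3 intact dogs were compared. The mean log2(CPM + 1) over the 100 IDs was 3.56 in PT-1, 2.27 in PT-4 and 2.64 in PT-8, the intact dogs, and it ranged from 2.95 to 3.83 in neutered dogs. Of the intact dogs, PT-4 and PT-8 were below all neutered dogs and PT-1 was within their range. In edgeR, 0 of the 100 IDs had an FDR under 0.05 (0% of 15249 genes tested, in either direction), 18 had an unadjusted p under 0.05 (5.31% of all genes), and DESeq2 called 0 (0.114% of its genes). The median log2 fold change was 0.52 over the 100 IDs and -0.06 over all genes, and without PT-1 the former was 1.19, with 27 IDs at an unadjusted p under 0.05 (6.75% of all genes). Leaving out PT-4 left 6 such IDs (11.4% of all genes), and leaving out PT-8 left 5 (5.11%).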

How the data were processed

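RNA from 25 samples was sequenced as single reads. The authors demultiplexed the reads with bcl2fastq 2.15.0.4, trimmed them with Trimmomatic 0.32, mapped them to CanFam3.1 with TopHat2 and deposited unnormalised counts per Ensembl ID made with HTSeq. Groups, age and reproductive status came from the labels. Of the dogs with both aspirates in life and matching tissue, only the dog of US-3 had a sequenced aspirate. Whether its tissue was sequenced is not stated, so that US-3 and a malignant tissue may share a dog. The labels do not pair samples. All samples were therefore treated as independent, and p-values measure the spread between samples. The members, lists and tests were chosen with earlier results of these data known.

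CPM used the gene counts without KLK2, and 1 CPM was added before log2. Alignments in HTSeq's class without a gene feature, 58.8% to 70.3% of all, were left out. Where these alignments lay was not tested. edgeR's filterByExpr, with the 4 groups given, a count of at least 10 and a total of at least 15, left 15296 genes, and genes without a count in the samples compared were dropped. TMM factors were used for normalisation, followed by glmQLFit and glmQLFTest of edgeR 4.0.16 in R 4.3.3, with Benjamini-Hochberg adjustment over all genes tested. The SE was taken from F, as the size of the log2 fold change over the root of F. The globin share was the log2 of the share of 5 genes, with 1 count added in tissue, and the blood score entered as a number. IDs were named if they had the 2 largest smaller differences or the 2 smallest p-values per direction among those called in a comparison, and a few others in small counts were named after their values had been seen. Lists of cell type markers by gene symbol could not be applied to the IDs.

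Alternatives were other library totals, pseudocounts, floors and medians for the choice, and DESeq2 1.42.0, its size factors, no filter, a stricter FDR, KLK2 and globin genes left out, and single samples left out for the tests. The scripts were tested on simulated data. Other steps ran in Python 3.11.15 with pandas 2.3.3 and NumPy 2.4.6, intervals in SciPy 1.17.1 and plots in matplotlib 3.10.9.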

Additional observations from a re-analysis of the deposited data

Results flagged for a closer look

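For 13 measures in 3 groups, 7 of 39 sets of values held a sample far from the rest of its group. The rule used gives about 1 in 20 by chance for normally distributed values, and its rate for CPM values was not tested. The single far sample was PT-17 at 3.90 CPM for ENSCAFG00000003376 and at 1.39 CPM for ENSCAFG00000003260 in non-malignant tissue. PT-10 stood apart in the same group at 1.31 CPM for ENSCAFG00000011525 and at 5.24 CPM for ENSCAFG00000018073. In malignant tissue, PT-5 was at 13.0 CPM for ENSCAFG00000029568 and PT-9 at 1.35 CPM for ENSCAFG00000035517. Among non-malignant aspirates, US-13 was at 18.6 CPM for ENSCAFG00000017772. The malignant group of 2 aspirates was too small for this rule.

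Alignments in HTSeq's class without a gene feature, which entered no comparison of IDs, took 4.78 percentage points more in malignant US-FNA than in malignant tissue. Their share was 64.8% in US-4 and 65.8% in US-3, above all malignant tissues (59.2% to 61.7%), and the exact two-sided permutation p was 0.018, the smallest that 2 against 9 samples allow. In non-malignant samples the difference was 2.83 percentage points (exact two-sided permutation p = 0.14), and aspirates (61.9% to 70.3%) overlapped with tissue (58.8% to 68.8%). The part of these alignments in the levels of the 100 IDs was not tested.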

How the results depend on the processing

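Under 9 other totals, pseudocounts, floors and summaries, 72 to 99 of the 100 IDs stayed in the list. With 1 aspirate left out, 31 (without US-3) to 94 stayed. The 54 IDs without overlap in non-malignant samples became 54 to 73 with 1 aspirate left out (1.97% to 2.56% of all ranked IDs), and the 26 in malignant samples became 27 without US-3 (10.2%) and 98 without US-4 (14.2%); these counts were added after seeing the data. At an FDR under 0.00001, edgeR called 17 IDs between tissues (6.39% of all genes), 0 between aspirates (0%) and 0 for the globin share in tissue (0.0196%). Between aspirates, the 71 calls became 11 (without US-3, 22.1% of all genes) to 79 (without US-4, 26.8%), and the other libraries and values are given beside the result. For the globin share in aspirates, DESeq2 called 2 IDs (0.185% of its genes) in place of 0. In non-malignant tissue alone, a split added after seeing the data, the slope on the globin share was called for 0 IDs (0.0133% of all genes). The causes of these changes were not tested. In all other alternatives run, the counts of IDs called in either direction, shared or without overlap stayed within 1.5 times. Some counts by direction and at an unadjusted p moved further. Between aspirates, the 84 IDs at an unadjusted p under 0.05 in edgeR became 18 without US-3 (34.7% of all genes) and the 68 higher IDs became 5 (1763 of 15169 genes). The 3 IDs lower in malignant aspirates became 6 with DESeq2 (2194 of 14262 genes) and 6 without US-3 (1591 of 15169 genes), and the 12 IDs for the globin share in aspirates became 5 to 72. No paired analysis was possible because the labels do not pair aspirates with tissue. For an ID without a count in a tissue (a median of 24 of the 100 IDs in non-malignant tissue), a level was not detectable at that depth.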
